A study of Mus musculus with 6 samples.

Results

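Expression of 10 genes of the Wnt pathway was followed in expanded mouse chondrocytes: the secreted inhibitors Frzb, Sfrp1, Sfrp2, Dkk2, Dkk3 and Wif1, the ligands Wnt5a, Wnt5b and Wnt11, and the target gene Axin2. They were taken by symbol from a table of 35976 genes, and all 10 were in it. The cells were embryonic chondrocytes from articular cartilage of the hind limb at embryonic day 18.5, on a C57BL/6 x 129S4/SvJae background, and were grown on tissue culture plastic for 16 population doublings. All cultures received doxycycline at 2 µg/ml, which induced transgenic expression of H3.3, a histone H3 variant. The transgene of the H3K9M group (replicates 1, 3 and 5) carries methionine at lysine 9 and methylation of that residue is described as suppressed, whereas the H3WT group (replicates 1, 2 and 4) expresses a wild-type transgene. The promoter driving the transgene is not named in the labels. Nor do they say whether the libraries of a group came from separate animals, so the p-values measure the spread between these libraries, which may be technical.

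Wnt proteins are secreted, lipid-modified ligands that bind Frizzled receptors together with co-receptors. In the canonical branch this binding stabilises beta-catenin, which joins TCF/LEF factors on DNA and switches on targets such as Axin2, while Wnt5a, Wnt5b and Wnt11 are best known for beta-catenin-independent signalling. Frzb, Sfrp1, Sfrp2 and Wif1 bind Wnt proteins outside the cell, and Dickkopf proteins such as Dkk2 act on the LRP5 and LRP6 co-receptors. In cartilage, canonical Wnt signalling is known to favour hypertrophy and loss of the chondrocyte phenotype, and Frzb was first isolated from cartilage.

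Total counts per library were between 15113675 and 19606082. The first principal component of all tested genes (35.5% of the variance) set H3K9M replicate 3 and H3WT replicate 2 apart from H3WT replicates 1 and 4, which were at its opposite end. The second component (28.8%) set all 3 H3K9M libraries (scores of 19.0 to 39.8) apart from all 3 H3WT libraries (-71.5 to -11.4). Chondrocyte markers were abundant in every library, with a sum over the 11 measured genes (Col2a1, Acan and others) of 7327 to 11495 CPM (reads of a gene relative to all reads of its library) in H3K9M and 7243 to 19217 in H3WT. The 6 fibroblast markers, led by Col1a1 and with Pi16 at 0, summed to 7864 to 20713 CPM in H3K9M and 6374 to 24243 in H3WT. The 10 skeletal muscle markers, of which Myf5 and Myh8 were at 0 in all libraries, summed to 27.2 to 237 CPM in H3K9M and 13.2 to 32 in H3WT. Acta1 made up most of that sum in H3WT replicates 1 and 4 (26.2 and 24 CPM). The 5 endothelial markers, with Cdh5 and Emcn at 0, summed to at most 0.825 CPM. The 8 macrophage and blood markers, with Ptprc and Adgre1 at 0, summed to 8.04 to 16.5 CPM in H3K9M and 3.84 to 6.29 in H3WT.

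No member passed the test between H3K9M and H3WT. In the edgeR quasi-likelihood test 0 of 9 tested members had an adjusted p under 0.05, against 0% of the 13761 genes tested. Dkk2 did not pass the filter on low counts and was not tested. At an unadjusted p under 0.05 there were 3 members, Frzb, Sfrp1 and Sfrp2, all with lower means in H3K9M, where 5.77% of all genes reached that p with a lower mean and 6.42% with a higher one. DESeq2, which called 2.38% of the 15329 genes it gave an adjusted p, and limma-voom also called 0 members. In 0 of the 9 did the groups separate without overlap, against 19.4% of all genes. The median log2 fold change of the 9 was -0.78, beside -0.0029 over all genes tested, and it lay between -0.65 and -0.23 when 1 library was left out (-0.23 without H3K9M replicate 5).

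The members differed widely in level. Per kilobase of exon (CPM divided by merged exon length in GENCODE M21), Dkk3 was the highest in all 6 libraries, at 158 ± 27.2 (SD, n = 6 libraries). Sfrp2 (28.3 ± 47) and Sfrp1 (11.2 ± 13.8) followed, with Sfrp2 above Sfrp1 in 4 of 6 libraries, so that these neighbours did not differ beyond their spread. Sfrp1 was above Wnt5a, the next in order, in only 2 of 6 libraries. In H3K9M alone the means of Sfrp2 (3.36) and Sfrp1 (2.40) were below those of Wnt5a (5.02) and Wnt5b (7.16). Wnt5a (6.81 ± 2.92) lay above Wnt5b (5.77 ± 2.68) in 3 of 6 libraries. Those were the 3 H3WT libraries, and Wnt5b was the higher in all 3 H3K9M libraries. Frzb (1.62 ± 1.19) and Wnt11 (1.46 ± 0.459) came next and changed places between libraries, and both lay below Wnt5b and above Axin2 (0.375 ± 0.315), Wif1 (0.260 ± 0.193) and Dkk2 (0.155 ± 0.301) on this scale of means. Axin2 lay above Wif1 in 3 of 6 libraries and Wif1 above Dkk2 in 4 of 6.

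**Figure D1:**
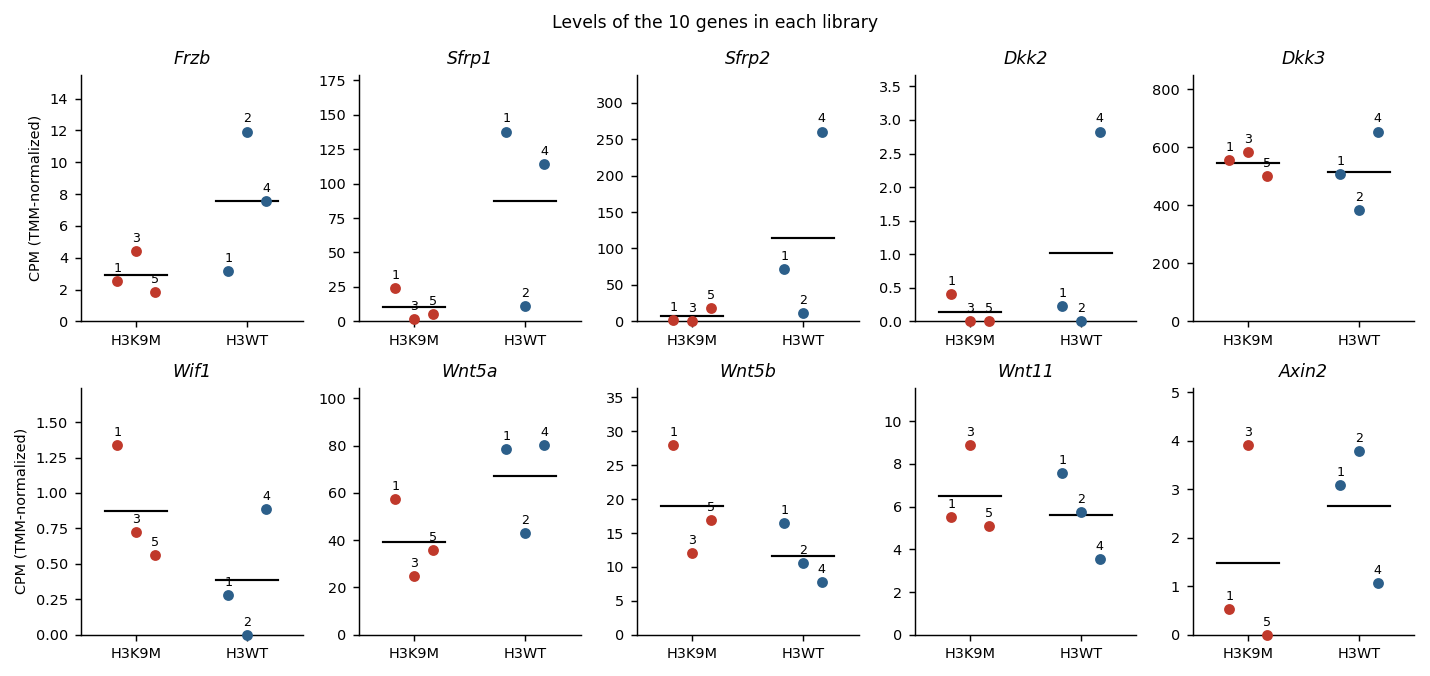
Level of each of the 10 genes (TMM-normalized CPM, linear axis from 0) in the 3 H3K9M (red) and 3 H3WT (blue) libraries; digits are replicate numbers and lines are group means. Sfrp1 and Sfrp2 are highest in H3WT replicates 1 and 4, with H3WT replicate 2 inside the H3K9M range for both, whereas Dkk3 stays between 383 and 654 CPM.

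Among the secreted inhibitors with reads in every library, Sfrp2 showed the greatest fold between its highest and lowest library. Sfrp2 encodes a secreted Frizzled-related protein, a decoy carrying the cysteine-rich Wnt-binding domain of the receptors. Its level was 2.08, 0.773 and 18.8 CPM in H3K9M replicates 1, 3 and 5 and 72.5, 11.2 and 260 CPM in H3WT replicates 1, 2 and 4, a 337-fold range over the 6 libraries. H3WT replicates 1 and 4 were above every H3K9M library, and H3WT replicate 2 was below H3K9M replicate 5, so the groups overlapped. The means were 7.23 ± 10.1 and 115 ± 130 CPM (SD, n = 3 each). This gave a log2 fold change of -3.97 (unadjusted p 0.0394, adjusted p 0.385 in edgeR, SE 1.52). It was -2.52 without H3WT replicate 4 and -6.36 without H3K9M replicate 5. In bulk RNA, fewer expressing cells and less RNA per cell cannot be told apart. Sfrp2 lies at chr3:83766321-83774316 on the plus strand (GRCm38). Its exons overlap Gm26771 on the opposite strand in GENCODE M21, and the strand setting of the counting is not given in the sources used here.

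The bases before the Sfrp2 start are shown because this gene had the lowest log2 fold change of the 9. The window, from RefSeq on GRCm38.p6, is the 250 bases at chr3:83766071-83766320, plus strand, written 5′ to 3′. It held 16 CpG dinucleotides, against a median of 6 and an upper quartile of 16 over 32817 windows of the same length.
Sfrp2: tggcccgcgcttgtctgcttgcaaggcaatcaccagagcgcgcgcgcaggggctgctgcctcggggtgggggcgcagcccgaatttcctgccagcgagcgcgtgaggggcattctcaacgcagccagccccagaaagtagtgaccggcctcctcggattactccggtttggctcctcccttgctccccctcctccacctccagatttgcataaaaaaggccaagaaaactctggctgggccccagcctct

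Sfrp1, the closest relative of Sfrp2 among the members, had 24.3, 1.93 and 5.2 CPM in H3K9M replicates 1, 3 and 5 and 138, 10.9 and 114 CPM in H3WT replicates 1, 2 and 4. The pattern resembled that of Sfrp2: H3WT replicates 1 and 4 were high, and H3WT replicate 2 fell among the H3K9M libraries. The means were 10.5 ± 12.1 and 87.6 ± 67.4 CPM. For Sfrp1 the log2 fold change was -3.08 (unadjusted p 0.0437, adjusted p 0.394 in edgeR, SE 1.22). It ranged from -4.62 without H3K9M replicate 1 to -2.57 without H3K9M replicate 3. Of the fits without 1 library, the lowest adjusted p of Sfrp1 was 0.175, without H3WT replicate 2. The libraries also differed in the summed fibroblast markers, which were 24243 and 16602 CPM in H3WT replicates 1 and 4 but 6374 in H3WT replicate 2 and 7864 in H3K9M replicate 3. H3K9M replicates 1 and 5 had 20713 and 15799 CPM of these markers, with Sfrp1 and Sfrp2 below those of H3WT replicates 1 and 4. Most of the sum was Col1a1 and Col3a1 (18928 and 4884 CPM in H3WT replicate 1). Thy1 of the same list was also lowest in H3WT replicate 2 (22.6 CPM), followed by H3K9M replicate 3 (96.9 CPM). Pdgfra went the other way and was highest in H3WT replicate 2 (243 CPM) and H3K9M replicate 3 (236 CPM). Dpt, which was low, had 2.21, 1.59 and 0.255 CPM in H3K9M replicates 1, 3 and 5. In H3WT replicates 1, 2 and 4 Dpt had 3.37, 2.44 and 2.59 CPM. The part of fibroblast-like expression in the result was not tested.

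Frzb, also called Sfrp3 and a marker of articular and periarticular chondrocytes, followed another pattern. It had 2.55, 4.4 and 1.84 CPM in H3K9M replicates 1, 3 and 5 and 3.20, 11.9 and 7.54 CPM in H3WT replicates 1, 2 and 4. Its highest library was H3WT replicate 2, where Sfrp1 and Sfrp2 were low, and H3WT replicate 1 lay below H3K9M replicate 3. Between the groups, Frzb had a log2 fold change of -1.37 (unadjusted p 0.0393, adjusted p 0.385 in edgeR, SE 0.56), and -0.86 without H3WT replicate 2. H3WT replicate 2 also had the highest summed chondrocyte markers, 19217 CPM against 7243 to 13582 in the others. H3K9M replicate 5, the lowest in Frzb, had 11495 CPM of them. The 4 articular and joint markers, led by Prg4, summed to 177 to 220 CPM in H3K9M and 122 to 157 in H3WT. Prg4 was lowest in H3WT replicate 2 (68 CPM), whereas Erg of that list was highest there (22.5 CPM). The part of these markers in the Frzb difference was not tested.

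Dkk3, a divergent member of the Dickkopf family whose action on Wnt signalling depends on the cell type, was the most even of the members. It had 556, 582 and 499.5 CPM in H3K9M replicates 1, 3 and 5 and 509, 383 and 654 CPM in H3WT replicates 1, 2 and 4. The H3WT libraries lay on both sides of the H3K9M libraries. For Dkk3 the log2 fold change was 0.08 (adjusted p 0.904 in edgeR, SE 0.20), and its sign turned without H3WT replicate 2 (-0.08). Dkk3 supplied 92.5% to 96.9% of the summed level per kilobase of 16 secreted Wnt inhibitors in H3K9M, and 68.8%, 90.1% and 56.1% in H3WT replicates 1, 2 and 4. The rest of that sum, without Dkk3, was 8.66, 5.51 and 12 CPM per kilobase in H3K9M replicates 1, 3 and 5, against 68.8, 12.6 and 152 in those of H3WT. The highest H3K9M and the lowest H3WT library were thus close together, and no test was made on this sum.

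Dkk2 and Wif1 were close to the limit of detection. Dkk2, which binds the LRP5 and LRP6 co-receptors, had 6, 0 and 0 reads in H3K9M replicates 1, 3 and 5 and 4, 0 and 48 reads in H3WT replicates 1, 2 and 4. The 48 reads of H3WT replicate 4 corresponded to 2.83 CPM, and the 3 libraries at 0 reads allow up to 3 reads, or 0.145 to 0.156 CPM (counting error only). Wif1, a secreted protein that binds Wnt ligands directly, had 20, 15 and 11 reads in H3K9M and 5, 0 and 15 reads in H3WT in the same order. All 3 H3K9M libraries held Wif1 reads, but H3WT replicate 4 lay within their range at 0.884 CPM. The log2 fold change of Wif1 was 1.16 (adjusted p 0.769 in edgeR, SE 1.29), and leaving out H3WT replicate 2 gave 0.59 and leaving out H3WT replicate 4 gave 2.60, while limma-voom gave 2.15.

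**Figure D2:**
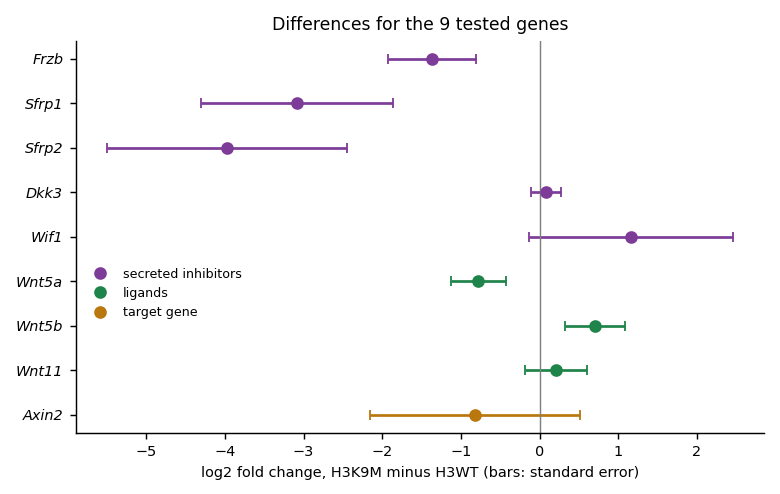
Log2 fold change (H3K9M minus H3WT, edgeR) of the 9 tested genes with standard errors as bars, coloured by role. Sfrp2 (-3.97) and Sfrp1 (-3.08) have the lowest values and wide errors, and Dkk3 (0.08) the narrowest; none passed the adjusted p threshold.

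Of the ligands, Wnt5a had a lower and Wnt5b a higher mean in H3K9M. Wnt5a, which signals through receptors such as ROR2, had 57.4, 24.7 and 35.7 CPM in H3K9M replicates 1, 3 and 5 and 78.4, 43.1 and 80.4 CPM in H3WT replicates 1, 2 and 4. H3WT replicate 2 was below H3K9M replicate 1, and the other H3WT libraries were above all H3K9M libraries. The log2 fold change was -0.78 (unadjusted p 0.0626, adjusted p 0.432 in edgeR, SE 0.35). Wnt5b, its paralogue, had 28, 12.1 and 16.9 CPM in H3K9M and 16.5, 10.6 and 7.84 CPM in H3WT in the same order. H3K9M replicate 3 was below H3WT replicate 1, so the groups overlapped. The log2 fold change was 0.70 (unadjusted p 0.101, adjusted p 0.488 in edgeR, SE 0.38), and 0.32 without H3K9M replicate 1.

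Although neither ligand separated the groups, their ratio did. Wnt5b took 32.8%, 32.8% and 32.2% of the reads assigned to Wnt5a and Wnt5b in H3K9M replicates 1, 3 and 5. In H3WT replicates 1, 2 and 4 the share was 17.4%, 19.7% and 8.88%. All H3K9M libraries were above all H3WT libraries, and the 95% Wilson intervals (counting error only) of the groups did not meet, the nearest bounds being 29.4% and 22.3%. The mean share was 32.6% ± 0.362 in H3K9M and 15.3% ± 5.71 in H3WT (SD, n = 3 each). This ratio was chosen after its values were seen and carries no test. Of the 36 ratios between pairs of tested members, 7 separated the groups, or 19.4%. The 36 ratios reuse the same 9 genes, and several of those that separated involve Wif1, which had 0 to 20 reads. Single genes separated in 19.4% of cases, but that share is not a background for ratios. Ratios over all gene pairs were not computed. The Wnt5a and Wnt5b transcripts share no stretch of 200 or more bases at 90% identity or above in GENCODE M21. Exons of Wnt5a overlap Gm2670 on the opposite strand.

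**Figure D3:**
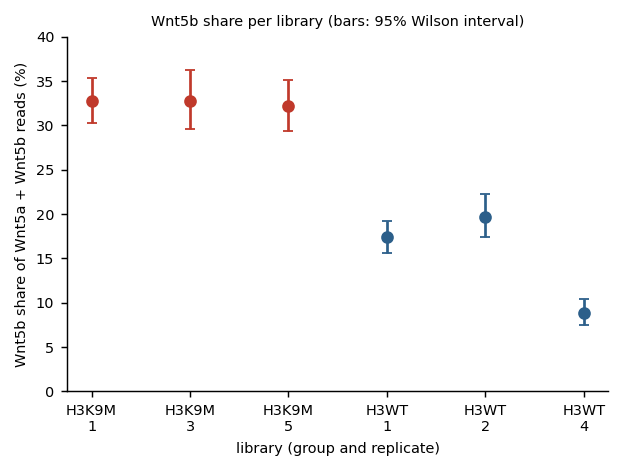
Share of Wnt5b among the reads of Wnt5a and Wnt5b (percent, axis from 0) in each library, with 95% Wilson intervals as bars, H3K9M in red and H3WT in blue. Values span 32.2% to 32.8% in the 3 H3K9M libraries and 8.88% to 19.7% in the 3 H3WT libraries.

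Wnt11, a ligand known for its part in cell movement and polarity, showed no consistent difference. It had 5.49, 8.89 and 5.10 CPM in H3K9M replicates 1, 3 and 5 and 7.58, 5.76 and 3.53 CPM in H3WT replicates 1, 2 and 4. The values of the groups were interleaved. The log2 fold change was 0.21 (adjusted p 0.881 in edgeR, SE 0.40), and it was -0.08 without H3K9M replicate 3 and -0.04 without H3WT replicate 4. Exons of Wnt11 overlap Gm8398 on the opposite strand.

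Axin2, a negative-feedback component of the beta-catenin destruction complex and a widely used readout of canonical signalling, was low in every library. It had 0.536, 3.91 and 0 CPM in H3K9M replicates 1, 3 and 5 and 3.09, 3.79 and 1.06 CPM in H3WT replicates 1, 2 and 4. These values rest on 0 to 81 reads, and the 0 in H3K9M replicate 5 allows up to 0.153 CPM. The highest libraries were H3K9M replicate 3 and H3WT replicate 2, which lay together on the first principal component and at opposite ends of the second. The means were 1.48 ± 2.12 and 2.65 ± 1.42 CPM. The log2 fold change was -0.82 (adjusted p 0.856 in edgeR, SE 1.34). It moved to -3.32 without H3K9M replicate 3, to -0.23 without H3K9M replicate 5 and to -2.64 in limma-voom. Exons of Axin2 overlap Gm11670 on the opposite strand.

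The promoters of the members were searched for the core letters CTTTGA of TCF/LEF sites, on both strands, to show which members carry them near the start. RefSeq windows of 250 bases before a start were found for 7 of the 10 members (10 windows), and those of Sfrp1, Dkk3 and Wnt5a were not found. The letters occurred in 3 of the 10 windows, those of Frzb, Wnt11 and Wnt5b, and in 13.8% of 32817 windows. The first base of each match lay 95, 50 and 71 bases before the RefSeq start. In GENCODE M21 Frzb spans chr2:80411970-80447625 and Wnt5b chr6:119432531-119544347, both on the minus strand. On that annotation the Frzb and Wnt5b matches lie within the genes and only the Wnt11 match lies before its gene. The Wnt5b match belongs to 1 of 3 annotated starts and the Wnt11 match to 1 of 2. The Frzb site is at chr2:80447474-80447503 (minus strand), the Wnt11 site at chr7:98835050-98835079 (plus) and the Wnt5b site at chr6:119449440-119449469 (minus), all GRCm38.p6. They are written 5′ to 3′ on the strand of the gene, with the matched letters (TCAAAG being the reverse complement) in capitals and 12 bases on either side.
Frzb: tcccctgaaaacTCAAAGccttctcggaag
Wnt11: gacgtgggcggaTCAAAGcgacggtccgcg
Wnt5b: gagtaagtctctCTTTGAtctgctccctgt

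The Axin2 window is shown as that of the canonical target among the members. At chr11:108920099-108920348 (GRCm38.p6, plus strand) the letters did not occur, which says only that they are not in these 250 bases. It held 24 CpG dinucleotides. The 3 genes whose windows carry the letters had log2 fold changes of -1.37 (Frzb), 0.21 (Wnt11) and 0.70 (Wnt5b), and so did not share a direction.
Axin2: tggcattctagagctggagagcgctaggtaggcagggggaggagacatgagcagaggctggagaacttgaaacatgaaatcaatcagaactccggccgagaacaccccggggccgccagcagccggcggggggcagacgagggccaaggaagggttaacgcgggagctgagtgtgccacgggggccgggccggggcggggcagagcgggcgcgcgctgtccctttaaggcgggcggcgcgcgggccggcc

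The other genes of the pathway gave context for the members. Of 111 further Wnt pathway genes, 88 were abundant enough to be tested and 0 passed an adjusted p of 0.05 (edgeR), in either direction. At an unadjusted p under 0.05 there were 19 with a lower mean in H3K9M (21.6%, against 5.77% of all genes) and 2 with a higher mean (2.27%, against 6.42%). The mean was lower in H3K9M for 65 of the 88 (73.9%, against 50.4% of all genes), and the median log2 fold change was -0.19. In 18 of the 88 the groups did not overlap (20.5%, against 19.4% of all genes). Of these, 16 were lower in H3K9M (18.2% of the 88, against 8.68%) and 2 were higher (2.27%, against 10.7%). The 19 became 30 without H3WT replicate 2, and 12, 11 and 9 without H3K9M replicate 5, H3WT replicate 1 and H3WT replicate 4. DESeq2 called 7 of the 91 that it gave an adjusted p (7.69%), namely Apc2, Daam2, Fzd8, Apcdd1, Fzd1, Nkd1 and Gpc3, all with lower means, where it called 1.2% of all genes with a lower mean. In limma-voom the count was 0. Summed skeletal muscle markers were 165 and 237 CPM in H3K9M replicates 1 and 3 and 13.2 to 32 CPM in the other 4 libraries, and their part in these differences was not tested.

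**Figure D4:**
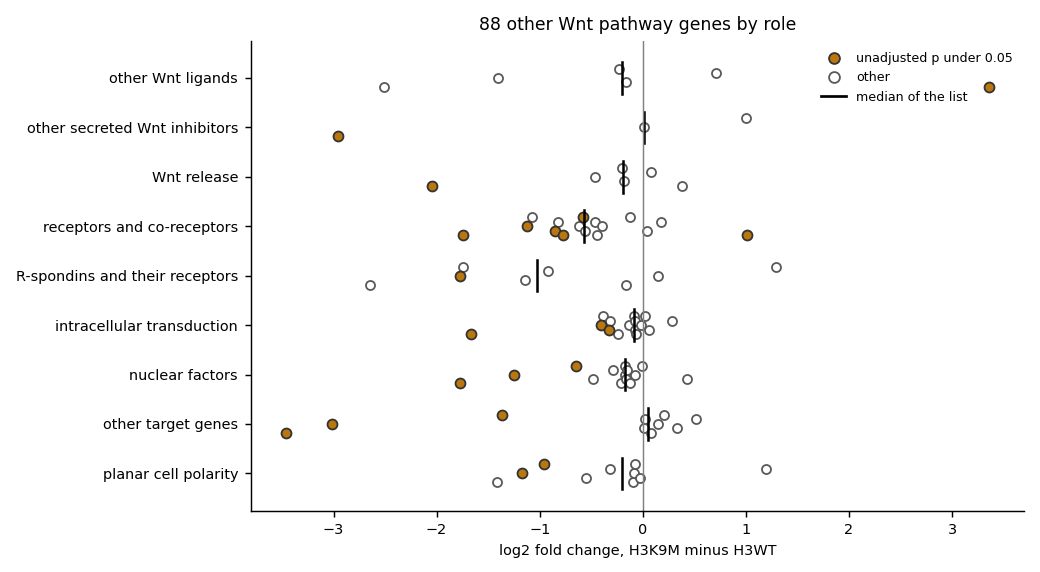
Log2 fold change (H3K9M minus H3WT, edgeR) of 88 other Wnt pathway genes grouped by role; filled points have an unadjusted p under 0.05 and vertical bars are list medians. Receptors (median -0.57) and R-spondins with their receptors (median -1.03) lie furthest to the left, and none of the 88 passed the adjusted p threshold.

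Other inhibitors added little to the members' levels, and other ligands added more. The members held 98.3% to 99.6% of the summed level per kilobase of all 16 secreted inhibitors, and 61.5% to 76.8% of that of all 19 Wnt ligands. Of the 16 other ligands 6 were tested, the most abundant being Wnt10b (5.68 ± 0.993 CPM in H3K9M, 6.66 ± 3.33 in H3WT), Wnt9a (5.73 ± 0.986 and 3.50 ± 1.51) and Wnt10a (2.15 ± 0.807 and 2.40 ± 1.5). Wnt2b, a canonical ligand, had 2.68, 3.14 and 0.867 CPM in H3K9M replicates 1, 3 and 5 and 0.112, 0 and 0.530 CPM in H3WT replicates 1, 2 and 4. These groups did not overlap, the H3WT values resting on 2, 0 and 9 reads. The log2 fold change was 3.36 (adjusted p 0.348 in edgeR, SE 1.25), or 5.18 without H3WT replicate 4. Among inhibitors outside the members, Notum, a deacylase that removes the Wnt lipid, had 2.24 ± 1.87 CPM in H3K9M and 2.23 ± 2.02 in H3WT, and Sfrp4 had 2.13 ± 1.35 and 1.06 ± 0.359. Draxin had 0, 0.676 and 0.102 CPM in H3K9M and 2.69, 1.4 and 2.30 in H3WT, which did not overlap (log2 fold change -2.96, adjusted p 0.382 in edgeR, SE 1.19, and -5.09 without H3K9M replicate 3). The H3K9M values of Draxin rest on 0, 14 and 2 reads. Dkk1 and Sost, inhibitors of LRP5 and LRP6, were at or near 0.

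On the side of release and reception, Wls, which carries Wnt proteins to the cell surface, had 207 ± 13 CPM in H3K9M and 285 ± 95.7 in H3WT (log2 fold change -0.46, adjusted p 0.446, SE 0.22). Gpc3, a glypican of the cell surface, had 9.24, 3.33 and 9.64 CPM in H3K9M replicates 1, 3 and 5 and 26.8, 29.3 and 35.5 CPM in H3WT replicates 1, 2 and 4. All H3WT libraries were above all H3K9M libraries, with a log2 fold change of -2.05 (adjusted p 0.171 in edgeR, SE 0.39). Of the 16 tested receptors and co-receptors 13 had a lower mean in H3K9M (81.25%, against 50.4% of all genes). At an unadjusted p under 0.05 in edgeR there were 5 with a lower mean (31.25%, against 5.77%) and 1 with a higher mean (6.25%, against 6.42%). The log2 fold changes of the 16 ran from -1.75 to 1.01. Ror2, a receptor for Wnt5a, had 40.4 ± 11.1 and 60.5 ± 8.68 CPM (log2 fold change -0.58, adjusted p 0.346, SE 0.21), and H3K9M replicate 1 lay above H3WT replicate 2. Fzd6 was the receptor with the highest log2 fold change, at 27.6 ± 14 and 13.7 ± 4.43 CPM (1.01, SE 0.43, adjusted p 0.406). Lrp5 (126 ± 22.9 and 138 ± 1.73 CPM) and Lrp6 (264 ± 64.8 and 348 ± 113 CPM) did not pass. Rspo2, a secreted enhancer of Wnt signalling, had 15.6 ± 9.01 and 53.1 ± 35.4 CPM (log2 fold change -1.77, adjusted p 0.402, SE 0.71, and -1.14 without H3WT replicate 4).

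Inside the cell, Ctnnb1, which encodes beta-catenin, was even at 624 ± 31.6 CPM in H3K9M and 664 ± 33.7 in H3WT (log2 fold change -0.09, adjusted p 0.818, SE 0.12). Apc2, a relative of the destruction-complex scaffold Apc, had 4.42, 5.31 and 5.26 CPM in H3K9M replicates 1, 3 and 5 and 19.8, 8.56 and 19.3 CPM in H3WT replicates 1, 2 and 4. The groups did not overlap (log2 fold change -1.66, adjusted p 0.202, SE 0.36), and Apc2 passed without H3WT replicate 2 (adjusted p 0.0291). Dvl1, one of the Dishevelled adaptors, had 127 ± 20.9 and 105 ± 11.1 CPM (log2 fold change 0.28, adjusted p 0.49, SE 0.15). Daam2, a formin linked to Wnt signalling, had 36.7, 22.5 and 32.7 CPM in H3K9M and 66.9, 81.0 and 59.1 CPM in H3WT, again without overlap. Its log2 fold change was -1.17 (adjusted p 0.17 in edgeR, SE 0.21), and it passed when every gene with a count was tested (adjusted p 0.0185). The nuclear partners Lef1 (2.5 ± 1.28 and 1.85 ± 0.130 CPM) and Tcf7 (2.43 ± 1.10 and 3.40 ± 0.838 CPM) were low and did not pass.

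The members did not move as one group across libraries. Sfrp1, Sfrp2 and Wnt5a had their highest levels in H3WT replicates 1 and 4 and their lowest in H3K9M replicate 3, whereas Axin2 and Wnt11 were highest in H3K9M replicate 3 and Frzb in H3WT replicate 2. Likeness to other genes was measured as the root mean square difference of log2 CPM, centred per gene, over the 6 libraries. Among all tested genes, the nearest to Sfrp1 was Nkd2 (0.577, where Sfrp1 itself varied by 2.21 around its mean on the same scale) and the nearest to Sfrp2 was Nkd1 (0.947, where Sfrp2 varied by 2.79). The second nearest were Edn1 to Sfrp1 (0.623) and Ntrk3 to Sfrp2 (1.05), neither of them in the Wnt lists. The genes nearest to the other tested members, such as Catip to Frzb and Neu1 to Dkk3, were all outside the Wnt lists. Nkd1 and Nkd2 encode Naked cuticle proteins, intracellular antagonists that bind Dishevelled, and Nkd1 is a known target of canonical signalling. They were named after their values were seen, and likeness over 6 libraries is a description of these libraries. Nkd1 had 1.21, 0.145 and 2.91 CPM in H3K9M replicates 1, 3 and 5 and 14.9, 6.49 and 25.7 CPM in H3WT replicates 1, 2 and 4, without overlap (log2 fold change -3.46, adjusted p 0.255, SE 0.94, and -4.59 without H3K9M replicate 5). Nkd2 had 5.02, 0.145 and 1.48 CPM and 25, 4.83 and 22.9 CPM in the same order, with H3WT replicate 2 below H3K9M replicate 1 (log2 fold change -3.02, adjusted p 0.38, SE 1.13, and -4.43 without H3K9M replicate 1). Axin2 was high in H3K9M replicate 3, where both Nkd genes had their lowest level, resting on 3 reads each. Apcdd1, also in the target list and likewise named after its values were seen, was lowest in that library too (2.71 CPM, against 3.16 to 9.71 in the others). Of the 10 tested genes of that list, these 3 alone had a lower mean in H3K9M. The other 7 had a higher mean, and the median log2 fold change of the list was 0.054. Ccnd1, Cd44, Fosl1 and Tcf4 of the list were highest in H3K9M replicate 3 (939, 988, 118 and 178 CPM). Wisp1 was lowest there (50.5 CPM). These, too, were named after their values were seen.

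**Figure D5:**
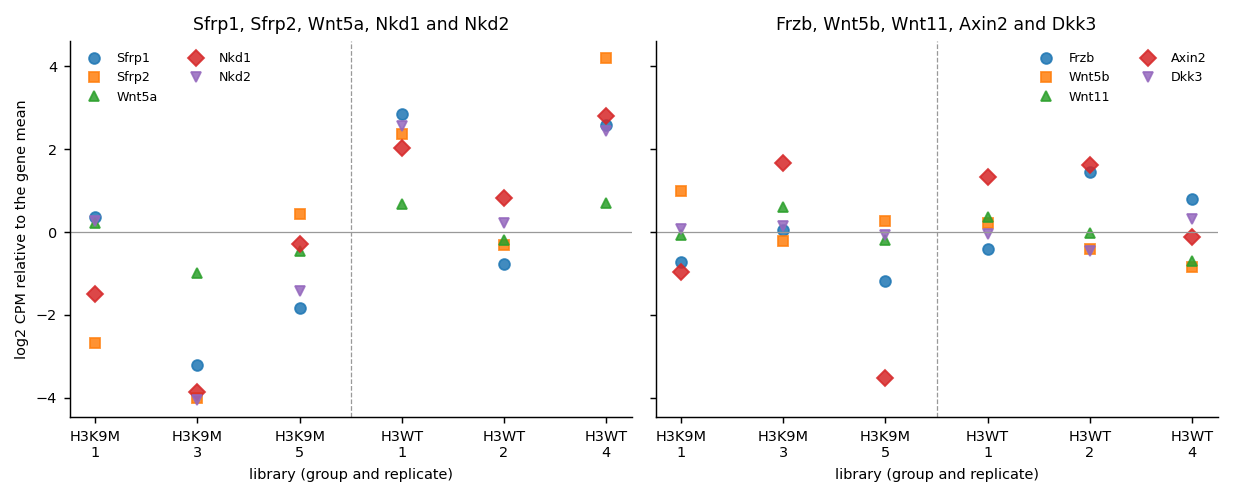
Level of each gene in each library as log2 CPM relative to that gene's mean over the 6 libraries; the dashed line divides the H3K9M from the H3WT libraries. In the left panel Sfrp1, Sfrp2, Wnt5a, Nkd1 and Nkd2 are all lowest in H3K9M replicate 3, and in the right panel Axin2 is high in H3K9M replicate 3 and H3WT replicate 2.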

How the data were processed

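Polyadenylated RNA of 3 H3K9M and 3 H3WT cultures was sequenced from Tecan Universal Plus mRNA-Seq libraries, per the labels' protocols. The authors deposited whole-number read counts, not normalized, with gene symbols as rows; the 6 columns were matched to samples by title. HISAT2, featureCounts, DESeq2 and the build mm10 are named in the submitters' processing notes; versions, annotation and strand setting are not given in the sources used here. Columns of other samples numbered 0.

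The main test was edgeR 4.0.16 under R 4.3.3 (filterByExpr, TMM scaling, robust quasi-likelihood fit on genotype). Adjusted p-values are Benjamini-Hochberg values over all 13761 tested genes, and 0.05 was the threshold. The SE is the log2 fold change divided by the root of the F statistic. CPM is TMM-normalized, and centred log2 values used a prior count of 2. Alternatives were DESeq2 1.42.0, limma-voom (limma 3.58.1), other scalings and filters, no robust estimation and leaving out each library.

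The members and all lists were chosen with earlier results of these data known. Named pathway genes were the 3 smallest p-values in each direction, Ctnnb1, Lrp5, Lrp6, Wls, Ror2, Lef1, Tcf7, and ligands, inhibitors and R-spondins among the 3 most abundant genes of their list. Genes most like a member were to be named where its groups did not overlap, which no member met. The lists covered ligands, inhibitors, release, receptors, R-spondins, transduction, nuclear factors, targets and planar cell polarity. Promoters came from the RefSeq GRCm38.p6 table, gene positions and exon lengths from GENCODE M21, and transcript similarity from blastn.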

Additional observations from a re-analysis of the deposited data

How the results depend on the processing

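No paired analysis was possible because the groups share only replicate number 1. No member had an adjusted p under 0.05 under any of the 13 alternatives, and the smallest was 0.155 (Sfrp2, DESeq2). Over all genes the count of calls was 0 and became 365 with DESeq2, 36 with no filter on low counts, and 0 to 91 when a library was left out (91 without H3WT replicate 2, 2 without H3K9M replicate 3). For the other pathway genes it was 0 and became 7 with DESeq2, 1 (Daam2) with no filter, and 0 to 3 when a library was left out (Apc2, Fzd1 and Fzd4 without H3WT replicate 2). The cause was not tested. Signs turned only when a library was left out, among the members and named genes: Dkk3 ran from -0.081 to 0.29, Wnt11 from -0.078 to 0.48, Wnt10b from -0.59 to 0.014, Wnt10a from -0.60 to 0.23 and Notum from -0.92 to 0.70. The members' median was -0.78 and ran from -0.65 to -0.23 over these fits. Library size alone moved the median of all genes from -0.0029 to 0.053 and turned no member's sign. Dkk2, tested only with no filter and by DESeq2, had log2 fold changes of -2.92 (adjusted p 0.613) and -2.96 (0.631). Wif1, Axin2 and Dkk2 rest on 0 to 81 reads a library, so counting error adds to the spread between libraries in their values.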
